A study of Caenorhabditis elegans with 6 samples.

Results

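The fatty acid desaturase genes of Caenorhabditis elegans, fat-1 to fat-7, were examined in worms exposed to albendazole, a benzimidazole drug against parasitic worms. They were taken by name: a probe set was used where the annotation of the array platform lists one of these symbols and no other gene. All 7 genes were found, each with 1 probe set, among 22548 probe sets that were tested and 17118 genes that have a probe set of their own. Levels are log2 signals of Affymetrix arrays, on which 1 unit is a doubling. The 3 albendazole samples (ABZ) came from worms in 300 µg/ml albendazole with 1.5% dimethyl sulfoxide (DMSO) by volume, and the 3 control samples (DMSO) from worms in 1.5% DMSO alone, both for 4 h. All were whole nematodes of strain CB3474 with the genotype ben-1(e1880)III, raised in liquid at 20 °C for 70 h after starting as synchronised first-stage larvae, about 10000 per condition. ben-1 encodes a β-tubulin whose loss makes worms resistant to benzimidazoles, and no sample lacked the mutation. Each group holds biological replicates 1, 2 and 3. In whole worms, fewer cells of a type and less RNA per cell cannot be told apart.

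Desaturases put double bonds into the chains of fatty acids, and their genes are best known from the intestine. C. elegans makes all its polyunsaturated fatty acids itself, in a chain of steps that starts with saturated fat. FAT-5 acts on palmitic acid, and the closely similar FAT-6 and FAT-7 turn stearic acid into oleic acid. FAT-2 turns oleic acid into linoleic acid, FAT-1 is the omega-3 desaturase, FAT-3 makes gamma-linolenic acid, and FAT-4 makes arachidonic and eicosapentaenoic acid from their precursors. Transcription of the genes for the first step is known to depend on the nuclear hormone receptors NHR-49 and NHR-80, on SBP-1, a sterol regulatory element binding protein, and on the Mediator subunit MDT-15. In a gene table of the WBcel235 assembly fat-3 and fat-4 are direct neighbours, with 0 genes between them, and fat-1 and fat-2 have 1 listed gene between them, which is not protein-coding. fat-6 and fat-7 lie on different chromosomes.

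One array, DMSO replicate 1, was unlike the other 5. Its correlation with them across probe sets lay between 0.934 and 0.943, against 0.988 to 0.996 among the other 5. The probe sets were split by mean signal into 5 equal bins. In the brightest bin its values minus the mean of the other arrays had a median of -0.59, and in the dimmest bin of 0.22. Of the 7 desaturase probe sets, 6 were among the brightest 10% by mean signal, and the dimmest, that of fat-7, had 18.1% of all probe sets above it. DMSO replicate 1 held the lowest of the 6 values in all 7 genes, as it did in 88.6% of the brightest bin and in 47.1% of all probe sets. Fold changes of the desaturase genes, and of the other genes named for their fold change, are therefore given with and without this array.

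None of the 7 desaturase genes differed between albendazole and DMSO beyond the spread between replicates. With limma and Benjamini-Hochberg adjustment over all probe sets, 0 of 7 had an adjusted p under 0.05, the threshold used here, and the share over all probe sets was 0%. At an unadjusted p under 0.05 it was 0 of 7, against 1.86% of all probe sets. The smallest adjusted p of a member was 0.651, that of fat-6. This was also the smallest over all probe sets, and genes with unlike unadjusted p share it. By limma the unadjusted p was 0.18 for fat-6 and 0.036 for cytb-5.1, a pathway gene described below with the same adjusted p. In every one of the 7 genes the ABZ and DMSO values overlapped, whereas they did not overlap in 17.9% of all probe sets. All 7 fold changes were above 0, with a median of 0.13 on the log2 scale, but so were 53.3% of all probe sets and 93.8% of the brightest bin, whose median was 0.20. Without DMSO replicate 1, 3 of the 7 were above 0 and the median was -0.13, against 52.0% and a median of 0.00 in the brightest bin.

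**Figure D1:**
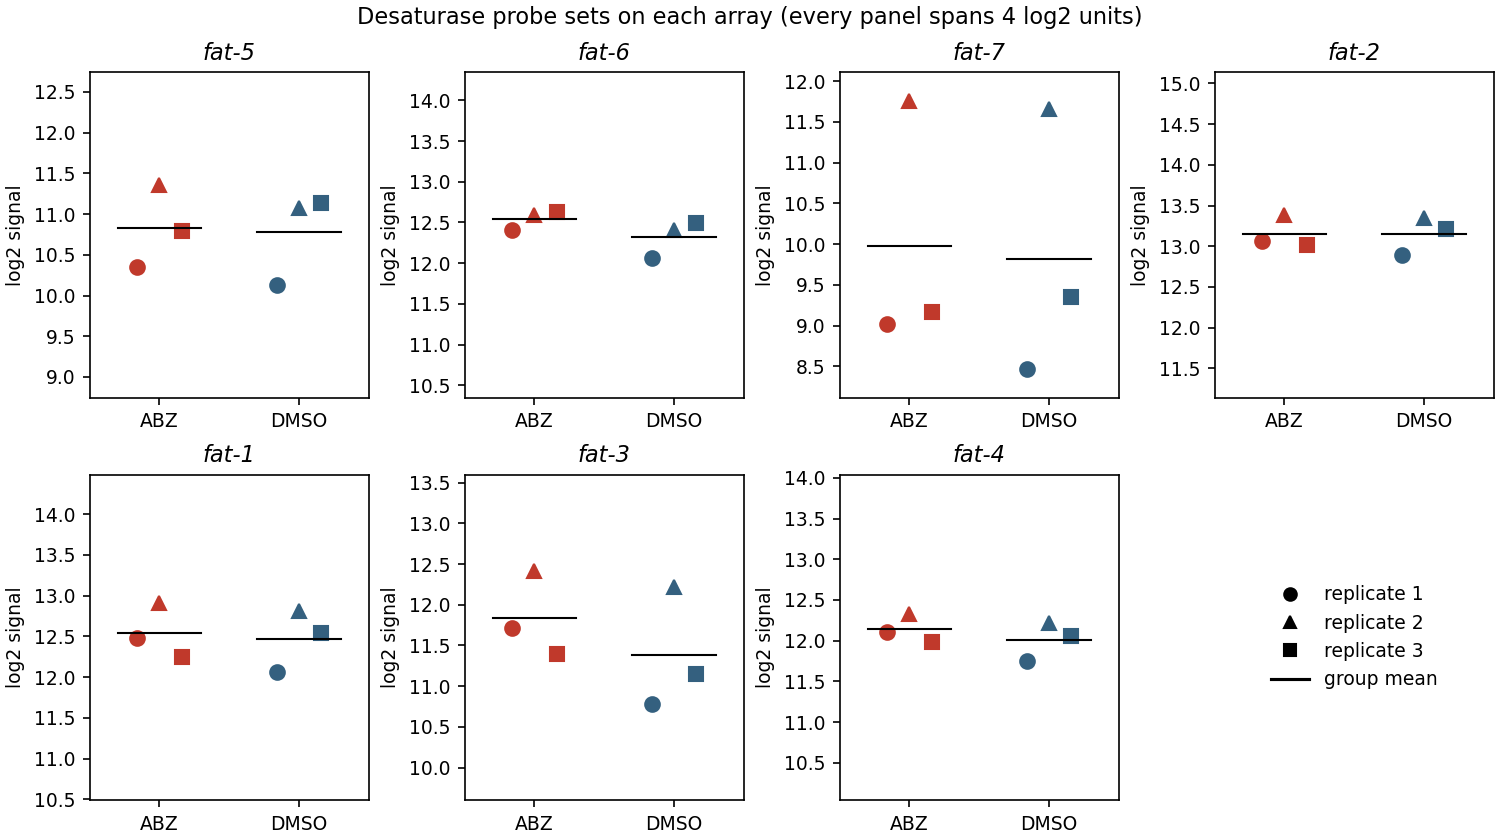
Log2 signal of the probe set of each desaturase gene on each array, with the albendazole arrays (ABZ, red) left of the DMSO arrays (blue). Markers show the replicate number, horizontal lines the group means, and every panel spans 4 log2 units; the fat-7 values of both arrays numbered 2 stand at 11.76 and 11.65, above all other values of that gene.

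Among the genes of the first step, fat-6 had the narrowest spread. Its log2 signals were 12.40, 12.59 and 12.63 in ABZ replicates 1, 2 and 3, against 12.06, 12.40 and 12.49 in DMSO replicates 1, 2 and 3. The values overlapped, with ABZ replicate 1 below DMSO replicate 3. The mean was 12.54 ± 0.12 in ABZ and 12.32 ± 0.23 in DMSO (n = 3 each, SD), for a log2 fold change of 0.22 (SE 0.15, limma adjusted p 0.651). The 95% confidence interval reached from 0.910-fold to 1.50-fold. Leaving out DMSO replicate 1 gave a log2 fold change of 0.10. The probe set of fat-6 carries the suffix that Affymetrix gives to probe sets whose probes match more than 1 transcript, although the annotation lists fat-6 alone.

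fat-5 had log2 signals of 10.35, 11.36 and 10.79 in ABZ replicates 1 to 3, against 10.12, 11.08 and 11.14 in DMSO replicates 1 to 3. Both arrays numbered 1 were the lowest of their group, and the range within either group was about as wide, 2.02-fold in ABZ and 2.03-fold in DMSO. The mean was 10.83 ± 0.51 in ABZ and 10.78 ± 0.57 in DMSO (SD, n = 3 each), and the log2 fold change was 0.05 (SE 0.37, limma adjusted p 0.939). It was -0.28 without DMSO replicate 1. Its interval reached from 0.559-fold to 1.93-fold.

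fat-7, the close relative of fat-6, differed far more between replicates than between the groups. Its log2 signals were 9.02, 11.76 and 9.16 in ABZ replicates 1 to 3, against 8.46, 11.65 and 9.35 in DMSO replicates 1 to 3. In each group replicate 2 was high and the other 2 samples were low, so that the values ranged over 6.70-fold in ABZ and 9.15-fold in DMSO. The mean was 9.98 ± 1.54 in ABZ and 9.82 ± 1.65 in DMSO (SD, n = 3 each). The log2 fold change was 0.16 (SE 1.06, limma adjusted p 0.938) and became -0.52 without DMSO replicate 1. With both samples numbered 2 left out, it was 0.18. With this spread the interval reached from 0.188-fold to 6.64-fold, and a drug effect within it was not detectable in this comparison, which takes no account of replicate numbers.

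The spread of fat-7 was among the widest on the arrays. Only 3 of the 22548 probe sets had a larger SD over the 3 ABZ arrays, where the median SD over all probe sets was 0.09. In DMSO, where the median SD was 0.28 with replicate 1 included, fat-7 ranked at place 10. For each probe set the smaller of 2 distances was taken: that of ABZ replicate 2 above the higher of the other ABZ arrays, and that of DMSO replicate 2 above the higher of the other DMSO arrays. This measure, chosen after the values were seen, was 2.30 for fat-7, or 4.94-fold, which was place 1 of all probe sets; fat-3 was at place 21 with 0.70. The descriptions do not say that samples with the same number shared a culture, so the main comparison does not pair them. Across probe sets, each of the 6 samples nevertheless correlated best with its own number. With the replicate number as a block, the SE of fat-7 was 0.19 and its log2 interval reached from -0.34 to 0.65.

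**Figure D2:**
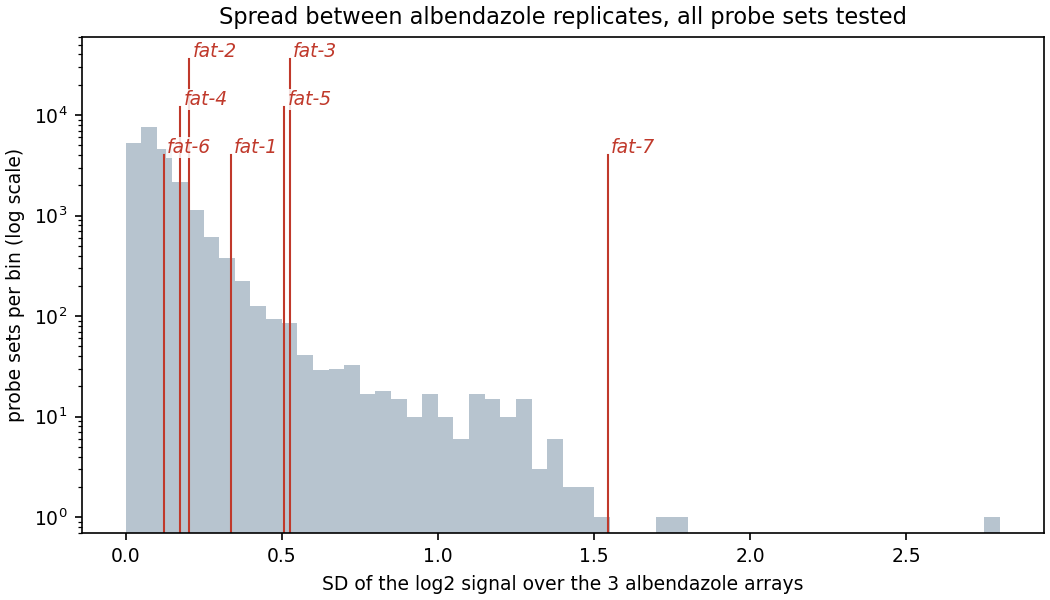
Number of probe sets (log scale) by the SD of their log2 signal over the 3 albendazole arrays, in bins of 0.05, for all 22548 probe sets tested. Red lines mark the desaturase genes: fat-7 at 1.54 has 3 probe sets beyond it, and fat-6 at 0.12 lies near the bulk.

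The high fat-7 signal on the arrays numbered 2 had little counterpart in fat-6, which encodes the enzyme with the same reaction. Within an array, the signal of fat-6 minus that of fat-7 was 3.39, 0.83 and 3.47 in ABZ replicates 1 to 3, against 3.60, 0.75 and 3.14 in DMSO replicates 1 to 3. A shift shared by a whole array drops out of such a difference. A shift that varies with signal level, as on DMSO replicate 1, need not drop out. Levels of different probe sets are not compared by this difference. The mean of fat-6 minus fat-7 was 2.56 ± 1.50 in ABZ and 2.50 ± 1.53 in DMSO (SD, n = 3 each). The groups thus differed by 0.07, while the replicates differed by more than 2 log2 units. Without DMSO replicate 1 the group difference was 0.62. Over all runs with samples left out it ranged from -0.81 to 0.93. ABZ replicate 2 lay above the mean of the other ABZ arrays by 2.67 in fat-7 and by 0.08 in fat-6, and DMSO replicate 2 lay above the mean of the other DMSO arrays by 2.75 and 0.13. For fat-5 minus the mean of fat-6 and fat-7, the values were -0.36, -0.82 and -0.10 in ABZ, against -0.14, -0.95 and 0.22 in DMSO.

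Among the genes of the polyunsaturated steps, fat-2 had the smallest difference. Its log2 signals were 13.06, 13.39 and 13.01 in ABZ replicates 1 to 3, against 12.89, 13.35 and 13.21 in DMSO replicates 1 to 3. Replicate 2 was again the highest of either group. The mean was 13.15 ± 0.20 in ABZ and 13.15 ± 0.24 in DMSO (n = 3 each, SD), for a log2 fold change of 0.00 (SE 0.17, limma adjusted p 0.995) with an interval from 0.752-fold to 1.33-fold. It was -0.13 without DMSO replicate 1.

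fat-1, which makes omega-3 from omega-6 fatty acids, had log2 signals of 12.48, 12.91 and 12.25 in ABZ replicates 1 to 3. In DMSO replicates 1 to 3 they were 12.07, 12.81 and 12.54. The order of replicates 1 and 3 was not the same in both groups, and replicate 2 was the highest in each. The mean was 12.54 ± 0.34 in ABZ and 12.47 ± 0.37 in DMSO (n = 3 each, SD), for a log2 fold change of 0.07 (SE 0.25, limma adjusted p 0.878). Its interval reached from 0.689-fold to 1.60-fold, and the value was -0.13 without DMSO replicate 1.

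fat-3 had the largest log2 fold change of the 7 genes and, after fat-7, the widest spread. Its log2 signals were 11.72, 12.42 and 11.39 in ABZ replicates 1 to 3, against 10.78, 12.22 and 11.15 in DMSO replicates 1 to 3. All 3 ABZ values lay above DMSO replicates 1 and 3, and ABZ replicates 1 and 3 lay below DMSO replicate 2. The mean was 11.84 ± 0.53 in ABZ and 11.38 ± 0.75 in DMSO (SD, n = 3 each). The log2 fold change of 0.46 (SE 0.44, limma adjusted p 0.652) had an interval from 0.659-fold to 2.86-fold. Without DMSO replicate 1 it was 0.16.

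fat-4, the neighbour of fat-3 and whose enzyme acts late in the chain, varied less. It had log2 signals of 12.11, 12.33 and 11.99 in ABZ replicates 1 to 3, against 11.75, 12.22 and 12.06 in DMSO replicates 1 to 3. The groups overlapped, with ABZ replicate 3 below DMSO replicates 2 and 3. The mean was 12.14 ± 0.18 in ABZ and 12.01 ± 0.24 in DMSO (n = 3 each, SD), for a log2 fold change of 0.13 (SE 0.16, limma adjusted p 0.682). The interval reached from 0.834-fold to 1.44-fold, and without DMSO replicate 1 the value was 0.00.

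**Figure D3:**
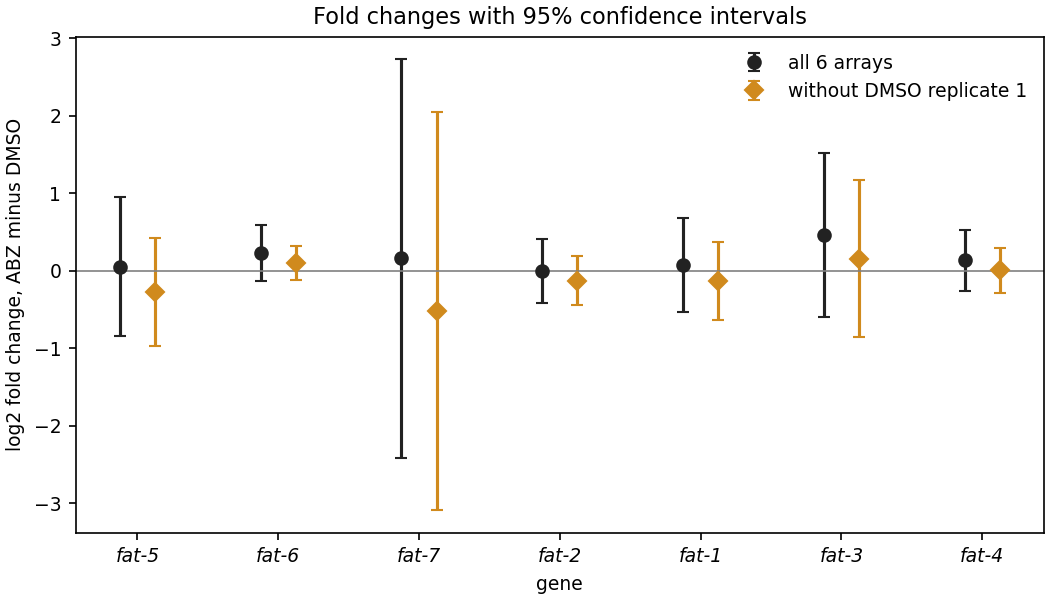
Log2 fold change, albendazole minus DMSO, of each desaturase gene with its 95% confidence interval from limma, over all 6 arrays (black circles) and without DMSO replicate 1 (orange diamonds). Every interval spans 0; that of fat-6 is the narrowest without DMSO replicate 1 (-0.12 to 0.32) and that of fat-7 the widest (-3.09 to 2.05).

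Both arrays numbered 2 held the 2 highest of the 6 values in 5 of the 7 genes, fat-1, fat-2, fat-3, fat-4 and fat-7. This order was seen in 7.11% of all probe sets and in 12.3% of the brightest bin. In fat-5 DMSO replicate 3 lay above DMSO replicate 2, and in fat-6 replicate 3 was the highest of either group. Markers of the intestine, where desaturases are active, were read on the same arrays. The summed linear signal of the 8 intestine markers lay between 51532 and 66617 in ABZ and between 48089 and 64482 in DMSO, with replicate 2 the highest of either group. Most of that range lay in cpr-1, a cathepsin B-like protease gene: the other 7 markers summed to between 43637 and 47092 in ABZ and between 40620 and 44486 in DMSO, again with replicate 2 the highest. The brightest of these 7, asp-1, weighs most in that sum. Its log2 signals lay between 14.60 and 14.74, near the highest signal of all, 14.89. Of the 8 markers it was in cpr-1 alone that both arrays numbered 2 held the 2 highest values: its log2 signals were 12.98, 14.25 and 12.95 in ABZ replicates 1 to 3, against 12.61, 14.29 and 13.48 in DMSO replicates 1 to 3. cpr-1 was singled out after its values were seen. The lowest log2 value of any intestine marker on any array was 8.34. The part of the intestine in the pattern of the desaturases was not tested.

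No change was detected in the pathway around the desaturases either. Of 49 measured genes in 7 lists, 0 passed at an adjusted p under 0.05, and at an unadjusted p under 0.05 there were 2, elo-4 and cytb-5.1, which is 4.08% against 1.86% of all probe sets. The fold change was above 0 in 43 of the 49 with all arrays, beside 53.3% of all probe sets and 93.8% of the brightest bin. Without DMSO replicate 1 it was above 0 in 30, beside 43.2% and 52.0%. The groups did not overlap in 9 of the 49, or 18.4%, close to the 17.9% of all probe sets. These lists were chosen by gene name, with earlier results of the same arrays known.

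Elongases lengthen the chains on which desaturases act, and 8 of the 9 listed were measured, with a median log2 fold change of 0.08. elo-1 and elo-2 had fold changes of -0.01 and 0.08 on the log2 scale, and -0.09 and 0.04 without DMSO replicate 1. elo-5 and elo-6, which make branched-chain fatty acids, had 0.08 and 0.07, and 0.15 and -0.06 without it. The largest differences of the list were in elo-4, at 8.88 ± 0.22 in ABZ and 8.33 ± 0.37 in DMSO (SD, n = 3 each; log2 fold change 0.55, limma adjusted p 0.651), and in elo-3, with 0.40. Without that array elo-4 had 0.33 and elo-3 had 0.27, and the median of the list was 0.09. Of the 3 partners of the elongation cycle, the dehydratase gene hpo-8 had 0.06, and -0.08 without that array. The enoyl-CoA reductase gene art-1 had 0.17, and 0.09 without it. The median of the 3 was 0.06 with all arrays and -0.08 without it.

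In fatty acid synthesis, pod-2, which encodes acetyl-CoA carboxylase, had a log2 fold change of 0.05, and -0.13 without DMSO replicate 1. The fatty acid synthase gene fasn-1 had 0.34, and 0.30 without that array. For the ATP citrate lyase gene acly-2 the value was 0.17, and -0.11 without that array. The median of the 5 genes was 0.10 with all arrays and -0.11 without it. Cytochrome b5 carries electrons to desaturases. Of the 4 genes for it and its reductase, cytb-5.1 had the largest difference, at 12.16 ± 0.41 in ABZ and 11.55 ± 0.20 in DMSO (SD, n = 3 each). All its ABZ values lay above all its DMSO values, and the log2 fold change of 0.61 (SE 0.23, limma adjusted p 0.651) was 0.51 without DMSO replicate 1. The reductase gene hpo-19 had 0.32, and -0.02 without that array. The sphingolipid desaturase genes ttm-5 and F33D4.4 had 0.12 and 0.31, and without that array 0.11 and -0.02.

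None of the 14 listed regulators of desaturase transcription passed. sbp-1 had a log2 fold change of -0.11, nhr-80 of -0.02, mdt-15 of 0.20 and nhr-49 of 0.35. Without DMSO replicate 1, sbp-1 had 0.00, nhr-80 0.08 and mdt-15 0.10. For nhr-49 the mean was 11.10 ± 0.05 in ABZ and 10.75 ± 0.44 in DMSO (SD, n = 3 each), and without DMSO replicate 1 its fold change was 0.09. The median of the 14 regulators was 0.23 with all arrays and 0.04 without that array. The largest values of this list, 0.69 for hlh-30, a transcription factor of lysosomal and lipid genes, and 0.56 for scp-1, a partner of SBP-1, were 0.29 and 0.07 without it. Of 13 genes of phospholipid and triglyceride synthesis, cept-1 had the largest difference with 0.81, and the acyltransferase gene mboa-7 had 0.58. Both were smaller without that array, at 0.35 and 0.12.

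**Figure D4:**
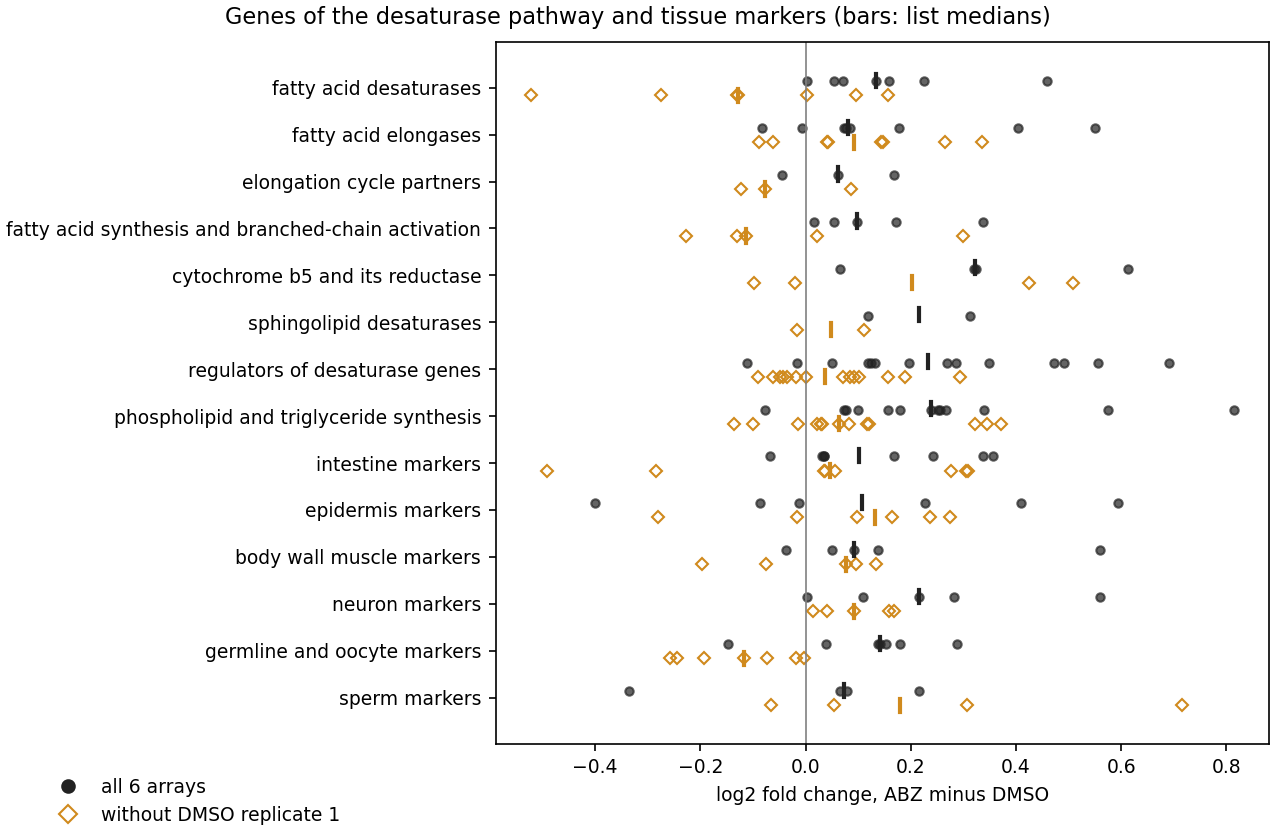
Log2 fold change, albendazole minus DMSO, of every measured gene in the desaturase list, the 7 pathway lists and the 6 lists of tissue markers, with all 6 arrays (black circles) and without DMSO replicate 1 (orange diamonds). Short vertical bars are list medians; the desaturase median moves from 0.13 to -0.13 when that array is left out.

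Tissue markers were measured in the same samples. Of 35 markers in 6 lists, 0 passed at an adjusted p under 0.05 by limma, beside 0% of all probe sets. At an unadjusted p under 0.05 there were 0, against 1.86% of all probe sets. The fold change was above 0 in 28, beside 53.3% of all probe sets and 93.8% of the brightest bin. Without DMSO replicate 1 it was above 0 in 21, beside 43.2% and 52.0%. The yolk gene vit-2 had 12.93 ± 0.12 in ABZ and 12.76 ± 0.23 in DMSO (n = 3 each, SD), for a log2 fold change of 0.17, and 0.04 without that array. The 2 intestine markers with the largest values were pho-1 with 0.36 and ifb-2 with 0.34, and without that array they had 0.28 and 0.30. In the epidermis list these were elt-3 with 0.59 and lin-26 with 0.41, against 0.28 and 0.10 without it. Muscle had unc-22 with 0.56 and unc-15 with 0.14, and 0.08 and -0.07 without it, and neurons had unc-104 with 0.56 and snb-1 with 0.28, and 0.17 and 0.04 without it. The germline and oocyte list had oma-1 with 0.29 and puf-5 with 0.18, and -0.07 and 0.00 without it. In the sperm list spe-9 had -0.34 and spe-11 had 0.22, and without that array -0.07 and 0.31.

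The genes whose pattern over the 6 arrays was most like each desaturase gene were ranked by Pearson's r of the log2 signals among 17117 other genes. With 6 arrays and so many genes values near 1 are common, so r serves for ranking only. The 2 highest were T15B7.1 (0.990) and the cytochrome b5 gene cytb-5.2 (0.990) for fat-1, and gpx-7 (0.998) and Y54G11A.7 (0.997) for fat-2. They were snet-1 and C54D10.3 for fat-3, Y32F6A.5 and col-39 for fat-4, Y48G8AL.13 and B0416.7 for fat-5, and C31G12.1 and C45H4.14 for fat-6. For fat-7 they were cpt-5 (0.994), a carnitine palmitoyltransferase family gene, and the nuclear hormone receptor gene nhr-18 (0.993). No desaturase gene was among the 2 most like another one. Over the 5 arrays without DMSO replicate 1 the 2 highest shared 1 gene with this ranking for fat-1, cytb-5.2, and 1 for fat-2, gpx-7, and 0 for each of the other genes. They were then cytb-5.2 and F57H12.6 for fat-1, str-149 and gpx-7 for fat-2, T04A8.18 and tiar-2 for fat-3, slc-9B.2 and F43C11.3 for fat-4, F40F8.1 and degt-1 for fat-5, hsb-1 and rab-18 for fat-6, and nlp-9 and cgr-1 for fat-7. Some of these were dim or nearly flat over the 5 arrays. The log2 signals of str-149 lay between 5.34 and 5.51 and those of degt-1 between 5.50 and 5.62, where the lowest signal of all was 4.89. Those of nlp-9 lay between 9.22 and 9.37. On DMSO replicate 1 str-149 (5.70) and degt-1 (5.84) had their highest value, where fat-2 and fat-5 had their lowest.

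The log2 signals of cpt-5 were 6.55, 8.35 and 6.64 in ABZ replicates 1 to 3, against 6.02, 8.15 and 6.52 in DMSO replicates 1 to 3. They were highest in both samples numbered 2, as those of fat-7 were. cytb-5.2 had 12.00, 12.27 and 11.87 in ABZ replicates 1 to 3, against 11.65, 12.23 and 12.06 in DMSO replicates 1 to 3. Its order of samples was that of fat-1. Both genes were picked for their likeness to a desaturase gene on these same arrays. The shared patterns follow from that choice and are no separate result.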

How the data were processed

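RNA of whole worms was hybridised to 6 Affymetrix C. elegans arrays, 1 per sample, from 1 µg of total RNA each. The deposited values are log2 signals per probe set; the submitters' processing notes name RMA and limma, without versions or order of steps. The log2 scale was inferred from the range of 4.89 to 14.89. The table holds no detection calls, and precision is limited by having 3 arrays per group. Its 77 control probe sets were left out. Gene names came from the platform annotation (20766 probe sets list 1 gene, 887 several, 895 none), with symbols looked up through gene numbers for 20701 of them and 0 changed. A gene with several probe sets is represented by the brightest.

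Groups were compared with limma 3.58.1 in R 4.3.3 (group as the only term, eBayes defaults, two-sided, Benjamini-Hochberg over 22548 probe sets); fold changes are albendazole minus DMSO. The steps were tested on simulated data. Members and lists were chosen with earlier results of these data known. Genes named are all members, a set of pathway genes fixed by name, the 2 largest differences of each list, and the 2 genes most like each member. Alternatives were a filter on dim probe sets, 3 scalings, the replicate block, eBayes settings, array weights, and samples left out; leaving out replicate 2 of both groups was added after the values were seen. No genome positions or sequences are given, and the planned comparison of the proteins was not run.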

Additional observations from a re-analysis of the deposited data

How the results depend on the processing

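No desaturase gene was called under any alternative run (0 of 7 each time), and 0 of the listed pathway and marker genes were called. Over all probe sets the count of 0 became 5 with gene-by-gene array weights. It became 2 with DMSO replicate 1 left out under an intensity trend and robust eBayes settings. In the main comparison 420 probe sets had an unadjusted limma p under 0.05. With samples left out this number ranged from 105, without ABZ replicate 1, to 1294, without DMSO replicate 1. Array weights gave 2232. The signs of fat-3 and fat-6 held in all 17 alternatives. Not all of these could change a sign: the filter on dim probe sets, the replicate block and the eBayes settings leave each fold change as it was. Quantile and cyclic loess normalization turned fat-1 (-0.082 and -0.068), fat-2 (-0.10 and -0.10), fat-4 (-0.039 and -0.030) and fat-5 (-0.19 and -0.17), and cyclic loess turned fat-7 (-0.084). Array weights turned fat-1 (-0.11), fat-2 (-0.10), fat-5 (-0.084) and fat-7 (-0.55). With samples left out, the log2 fold change ranged from -0.13 to 0.24 for fat-1, -0.13 to 0.10 for fat-2, 0.16 to 0.88 for fat-3, 0.00 to 0.24 for fat-4, -0.28 to 0.30 for fat-5, 0.10 to 0.31 for fat-6 and -0.73 to 1.07 for fat-7. The median of the 7 ranged from -0.13 to 0.29. The lowest median and the lowest value of every member but fat-7 came without DMSO replicate 1, and that of fat-7 without ABZ replicate 2. Under the trend and robust settings without DMSO replicate 1, the values were -0.13 for fat-1, -0.13 for fat-2, -0.28 for fat-5, -0.52 for fat-7 and -0.13 for the median. The cause of these turns was not tested. Of 208 medians of the other 13 lists over the alternatives, 196 stayed within the spread between replicates, DMSO replicate 1 included. A turn of sign within that spread counts as staying. The replicate block and the eBayes settings leave every median as it was. The run without DMSO replicate 1 under trend and robust settings repeats the medians of the plain run without that array. The 208 are therefore not all separate checks. Without DMSO replicate 1 the medians of the germline and oocyte list (0.14 to -0.12), fatty acid synthesis (0.10 to -0.11) and the elongation partners (0.06 to -0.08) turned. Each member has 1 probe set, so averaging probe sets changed nothing.

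With the replicate number as a block, fold changes are the same by construction and 0 genes were called: fat-3 had 0.46 (SE 0.20, adjusted p 0.645) and fat-7 0.16 (SE 0.19, adjusted p 0.679), with an interval for fat-7 from -0.34 to 0.65. Deviations from the group means correlated between same-numbered samples by 0.07 to 0.26 across probe sets. Each of the 6 samples correlated best with its own number, which is a hint from the data and not from the design. Adjusted p values are limma's.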

Other observations

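The gene next to fat-7 in the WBcel235 gene table, F10D2.10, with 0 genes between them, was also high in both samples numbered 2; it was singled out after its values were seen. One of its probe sets had log2 signals of 6.38, 8.79 and 6.41 in ABZ replicates 1 to 3, against 5.92, 8.11 and 6.58 in DMSO replicates 1 to 3. The other had 6.23, 7.67 and 6.17 in ABZ, against 6.11, 7.54 and 6.18 in DMSO. Both were among the 6 probe sets with the largest distance of the samples numbered 2 above the rest, at places 4 and 6. Whether the probe sets of both genes read 1 shared transcript was not tested.

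The largest SD over the ABZ arrays belonged to acdh-1, an acyl-CoA dehydrogenase gene. Its log2 signals were 7.99, 13.34 and 9.46 in ABZ replicates 1 to 3, against 8.23, 13.36 and 13.37 in DMSO replicates 1 to 3. It was high in 3 samples and low in the other 3, and unlike fat-7 it differed between ABZ replicate 3 and DMSO replicate 3; limma gave an adjusted p of 0.702. One probe set of the acyl-CoA synthetase gene acs-2 had 7.63, 9.44 and 7.85 in ABZ, against 8.89, 9.54 and 9.62 in DMSO. Its limma adjusted p was 0.651. Another probe set of acs-2 had 6.47, 8.90 and 6.40 in ABZ, against 6.01, 8.60 and 9.20 in DMSO. There DMSO replicate 1 was the lowest of the 6 arrays, and the limma adjusted p was 0.725. Both genes were singled out after their values were seen.

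Genes of the major sperm protein family were high in other samples. In 23 of 23 measured genes named msp, both arrays numbered 1 held the 2 highest values. How far their probe sets read the same transcripts was not tested, so these genes cannot be counted as 23 separate measurements. The share of all probe sets with this order is not given. The median log2 signal of the family was 12.85, 10.64 and 10.56 in ABZ replicates 1 to 3, against 12.38, 10.91 and 10.30 in DMSO replicates 1 to 3.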
